A study of Saccharomyces cerevisiae with 36 samples.

Results

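Wild-type yeast cells were compared after 6 h with an iron chelator and before it, at 0 h, by RNA-seq across all genes of the genome. The members are the 6 wild-type RNA-seq libraries that the labels place at 6 h or at 0 h, 3 at each time, out of 36 libraries in the series. At 6 h, cells of the strain W303a, a haploid laboratory strain of Saccharomyces cerevisiae of mating type a, had been in synthetic complete Kaiser medium at 30 °C with 100 µM bathophenanthroline disulfonate (BPS), a chelator that binds ferrous iron. At 0 h the same strain was collected in early exponential growth (OD600 of 0.2) from iron-sufficient medium of the same kind. Wild type at 3 h in BPS, and a strain that lacks CTH1 and CTH2 (listed in the files as TIS11), enter below beside single results, and the Ribo-seq libraries are not described. The labels call the 3 libraries of a group biological replicates. No culture kept for 6 h without BPS is among the samples, so the chelator and the additional hours of growth cannot be told apart. Values stand below in the order of replicates 1, 2 and 3.

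Yeast answers iron shortage through the transcription factors Aft1 and Aft2, which enter the nucleus when iron-sulfur clusters run low and switch on the iron regulon. The regulon makes cell wall proteins that hold iron-siderophore complexes, reductases that free ferric iron, plasma membrane transporters and carriers that empty iron stores. Among its targets is Cth2, an RNA-binding protein that, with its relative Cth1, binds AU-rich elements in mRNAs of iron-using proteins and promotes their decay. Respiration, the citric acid cycle, heme synthesis and several steps of amino acid synthesis depend on iron.

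Counts of reads per gene were deposited, and each library was scaled to a common total (CPM) with a trimmed-mean (TMM) factor that corrects for a few abundant genes. The 3 libraries at 6 h held 113262, 215168 and 5089523 counts, and those at 0 h held 6571727, 245994 and 3617572, so 2 of the 3 libraries at 6 h were shallow. A count of 3 equals 22.3, 10.9 and 0.463 CPM in the libraries at 6 h, and 0.547, 14.5 and 0.992 CPM in those at 0 h, and levels below that limit were not detectable there. TMM factors were 1.192, 1.286 and 1.275 at 6 h, against 0.8345, 0.8439 and 0.8366 at 0 h. On the first principal component of all 18 RNA-seq libraries, 43.1% of the variance, the wild-type libraries lay between 46.7 and 67.6 at 6 h, against -62.8 to -34.4 at 0 h. The 7 a-specific mating genes took 0.0821, 0.106 and 0.124% of the counts at 6 h, against 0.0830, 0.0931 and 0.125% at 0 h. The 4 alpha-specific genes took 0.00353, 0.0116 and 0.00711% at 6 h, against 0.00202, 0.000813 and 0.00196% at 0 h, and MF(ALPHA)1, the main alpha pheromone gene, was at 0, 0 and 4.01 CPM at 6 h, against 0.730, 0 and 0.331 CPM at 0 h. Of these 4, STE3, the a-factor receptor of alpha cells, rose (log2 fold change 3.66), and the part of that in the results below was not tested.

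Of 6006 features tested, 2155 (35.9%) had RNA at 6 h different from that at 0 h, with a Benjamini-Hochberg adjusted p under 0.05 in the quasi-likelihood test of edgeR. Of these, 1152 (19.2% of those tested) were higher at 6 h and 1003 (16.7%) were lower, and the smallest called log2 fold change was 0.70 in size. Over all features the median log2 fold change was 0.03. Rises reached further than falls: 518 features were more than 4-fold higher and 308 more than 4-fold lower, and 108 were more than 16-fold higher against 9 more than 16-fold lower. In 1959 of the 2155 the libraries of the 6 h group and the 0 h group did not overlap. Over all 6006 features, 1316 had every 6 h library above every 0 h library, and 1360 had every one below. Calls were made on the same values, so a lack of overlap in a called gene describes it and is not separate support. With scaling by total counts alone, the median shifted to 0.62 and the split became 2088 higher and 484 lower, so that each direction below is relative to the bulk of genes under TMM scaling.

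The iron regulon rose almost whole. Over 7 lists of genes for iron uptake, iron distribution, copper delivery and other Aft targets, 41 genes were tested, 35 rose, 1 fell (CCC1) and 5 did not pass, with a median log2 fold change of 2.92 against 0.03 for all features. In all 35, as in 1316 of all 6006 features, each library at 6 h lay above each library at 0 h. The log2 fold changes of the 35 ran from 1.04 to 6.17. None of the 7 medians changed sign under another scaling. The core that Aft1 and Aft2 recognise, TGCACCC, is shown here from the upstream regions of 7 genes that rose, since the same 7 bases recur next to genes of different roles. Sequences are from the R64 reference with 10 bases on each side, printed on the strand named, and capitals mark the core.

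FIT3 and FRE5, chrXV:1061334-1061340, minus strand: gattttttttTGCACCCtgtttgttcc
FIT3 and FRE5, chrXV:1061233-1061239, plus strand: cccattttttTGCACCCtttcctagaa
FIT1, chrIV:1505076-1505082, plus strand: ttcattttttTGCACCCtttcctagaa
FET3, chrXIII:388571-388577, plus strand: tcttcaaaagTGCACCCatttgcaggt
ARN1, chrVIII:21225-21231, minus strand: tttatcaaaaTGCACCCataaaagcag
FTR1, chrV:461909-461915, minus strand: cgtagatgaaTGCACCCgatttctaag
TIS11, chrXII:416901-416907, minus strand: cgccgcaaaaTGCACCCacattaaaga

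FIT3 and FRE5 are divergent neighbours on chromosome XV, with coding sequences at 1060441 to 1061055 on the minus strand and 1061564 to 1063648 on the plus strand, and both printed cores lie in the region between them. The FET3 core starts 251 bases upstream of the start codon and the TIS11 core 249 bases upstream. Over the 500 bases upstream of the start codon, searched on both strands, TGCACCC occurred in 134 of 5572 nuclear protein-coding genes tested (2.40%), and in 22 of the 35 iron genes that rose (62.9%). All 3 FIT genes, all 4 siderophore transporter genes and 6 of the 8 reductase genes held it. Of the 134 genes with the core, 59 were called higher (44.0%) and 11 lower (8.21%), with a median log2 fold change of 0.88. Of the 5438 genes without it, 1053 were called higher (19.4%) and 944 lower (17.4%), with a median of 0.03. The iron lists were put together from known Aft targets among others, so a high share of the core in them is built in. The 22 iron genes are also among the 59, so the 2 comparisons are not separate. A match describes letters in a window and is neither a shown binding site nor a cause.

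At the cell surface, the FIT mannoproteins, which retain iron-siderophore complexes in the cell wall, gave some of the largest changes. FIT3 (YOR383C) had 6801, 5200 and 3875 CPM at 6 h, against 50.0, 111 and 104 CPM at 0 h (log2 fold change 5.95 ± 0.52 SE, edgeR adjusted p = 6.96e-08). FIT2 (YOR382W) had 3360, 2432 and 2373 CPM at 6 h, against 28.3, 57.9 and 95.9 CPM at 0 h (log2 fold change 5.48 ± 0.54 SE, edgeR adjusted p = 3e-07). The libraries of each time lay far apart in both genes, and the smallest 6 h value of FIT3 was above the largest 0 h value by more than an order of magnitude. FIT1 was lower in level, with 163, 257 and 132 CPM at 6 h, against 10.04, 48.2 and 16.5 CPM at 0 h (log2 fold change 3.33 ± 0.55 SE, edgeR adjusted p = 6.51e-05). Together the 3 genes took 1.23, 1.01 and 0.812% of all counts at 6 h, against 0.00736, 0.0183 and 0.0181% at 0 h.

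Of the 8 metalloreductase genes, which reduce ferric and cupric ions before transport, 7 rose and the list's median was 2.86. FRE2 (YKL220C) had 756, 923 and 1158 CPM at 6 h, against 14.1, 28.9 and 30.1 CPM at 0 h (log2 fold change 5.37 ± 0.62 SE, edgeR adjusted p = 1.14e-06). FRE1, the main surface reductase for iron and copper, had 423, 865 and 719.8 CPM at 6 h, against 47.8, 48.2 and 77.4 CPM at 0 h (log2 fold change 3.51 ± 0.45 SE, edgeR adjusted p = 3.38e-06). The groups did not overlap in either gene. FRE5 had 134, 203 and 187 CPM at 6 h, against 12.04, 4.82 and 11.6 CPM at 0 h (log2 fold change 3.99). FRE3, which acts on siderophores, and FRE6, a vacuolar reductase, had log2 fold changes of 3.76 and 2.21. FRE7 (1.21) lost its call with DESeq2 (1.31), under the replicate block (1.15) and without any 1 of the 6 libraries (1.14 to 1.45), and FRE8 (1.68) lost it without replicate 2 at 6 h (1.23). FRE4 did not pass (log2 fold change 0.38 ± 0.61 SE, edgeR adjusted p = 0.665).

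High-affinity uptake through the plasma membrane rose with them. FET3 (YMR058W), the multicopper oxidase that feeds ferric iron to the permease Ftr1, had 2373, 2754 and 2226 CPM at 6 h, against 159, 178 and 237 CPM at 0 h (log2 fold change 3.67 ± 0.42 SE, edgeR adjusted p = 1.04e-06). FTR1 itself had 2099, 2153 and 1821 CPM at 6 h, against 183, 256 and 229.5 CPM at 0 h (log2 fold change 3.20 ± 0.35 SE, edgeR adjusted p = 7.63e-07). Neither of these partner genes had overlapping groups. FET4, a low-affinity transporter for ferrous iron and other metals, had 890.0, 1067 and 1208 CPM at 6 h, against 108, 106 and 196 CPM at 0 h (log2 fold change 2.92), while the manganese transporter genes SMF1 and SMF2 did not pass, at -0.86 (edgeR adjusted p = 0.159) and 0.24 (edgeR adjusted p = 0.725).

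All 4 siderophore transporter genes rose, with a median of 4.95. ARN2 (YHL047C) had 1810, 1990 and 2524 CPM at 6 h, against 22.3, 62.7 and 62.5 CPM at 0 h (log2 fold change 5.51 ± 0.56 SE, edgeR adjusted p = 4.04e-07). ARN1, SIT1 and ENB1, carriers for other hydroxamate or catecholate siderophores, had log2 fold changes of 5.10, 4.81 and 3.08. In none of the 4 did a library at 0 h reach one at 6 h.

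Inside the cell, carriers that release iron from the vacuole or bring it into mitochondria rose, and the importer that stores it fell. MRS4, a carrier into mitochondria, had 193, 221 and 156 CPM at 6 h, against 25.9, 4.82 and 26.8 CPM at 0 h (log2 fold change 3.02), and its relative MRS3 a log2 fold change of 2.07. SMF3, FTH1 and FET5, which move iron out of the vacuole, had log2 fold changes of 1.90, 2.27 and 1.96. CCC1 (YLR220W), the vacuolar iron importer, had 51.9, 18.1 and 30.4 CPM at 6 h, against 125, 91.6 and 149.8 CPM at 0 h (log2 fold change -2.02 ± 0.43 SE, edgeR adjusted p = 0.000762). It was the single one of these 41 genes called lower, with no library of 6 h reaching those of 0 h, and it kept that call under total-count scaling.

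Copper is needed to make Fet3 active. CCC2, the Golgi copper pump that loads Fet3, had a log2 fold change of 3.38, ATX1, the chaperone that hands copper to it, 1.83, the plasma membrane copper transporter CTR1 1.33 and the vacuolar CTR2 1.04. All 4 rose, although CTR2 lost its call without replicate 3 at 6 h (0.92) or replicate 1 at 0 h (0.91). CTR3, another plasma membrane copper transporter, and MAC1, the copper-sensing transcription factor, did not pass.

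Among 9 regulators of iron, 4 rose (44.4%) and none fell, against 19.2% and 16.7% of all features. AFT1 had 126, 166 and 66.2 CPM at 6 h, against 32.5, 28.9 and 23.8 CPM at 0 h (log2 fold change 1.99 ± 0.40 SE, edgeR adjusted p = 0.000486). AFT2 did not pass (log2 fold change 0.74 ± 0.41 SE, edgeR adjusted p = 0.167), nor did GRX4, a glutaredoxin that signals iron status to Aft1 (log2 fold change -0.01). YAP5, a factor for high-iron responses, and FRA1, a partner of the glutaredoxins, rose by log2 fold changes of 1.66 and 1.51. TIS11 (YLR136C), which encodes Cth2, had 349, 387 and 250.0 CPM at 6 h, against 6.57, 4.82 and 9.59 CPM at 0 h (log2 fold change 5.38 ± 0.46 SE, edgeR adjusted p = 6.96e-08). In replicate 2 at 0 h it was below the limit of 3 counts, and no value at 0 h came near those at 6 h. CTH1 (YDR151C) did not pass, with 29.7, 43.4 and 37.8 CPM at 6 h, against 40.7, 38.6 and 63.5 CPM at 0 h (log2 fold change -0.37 ± 0.48 SE, edgeR adjusted p = 0.58), and its sign turned under total-count scaling (0.22).

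All 9 other Aft targets on the list rose, with a median of 3.34. LSO1, a small protein made under iron shortage, rose furthest, with 252, 116 and 119 CPM at 6 h, against 1.09, 0 and 3.64 CPM at 0 h (log2 fold change 6.17 ± 0.75 SE, edgeR adjusted p = 1.84e-06). HMX1, the heme oxygenase that recovers iron from heme, had 972, 546 and 465 CPM at 6 h, against 81.2, 24.1 and 72.7 CPM at 0 h (log2 fold change 3.34). These groups stood clear of each other, though LSO1 was close to undetectable at 0 h. BNA2, which starts the synthesis of NAD from tryptophan, had a log2 fold change of 4.54, the biotin transporter VHT1 2.68, the iron-sulfur scaffold genes ISU2 and ISU1 3.65 and 1.96, and ATG41, an autophagy gene, 3.47. PCL5, a cyclin that marks Gcn4 for destruction, had 1.62 and lost its call without replicate 3 at 6 h (1.38) or replicate 1 at 0 h (1.40), and ISU1 lost its call without both shallow 6 h libraries (1.26).

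**Figure D1:**
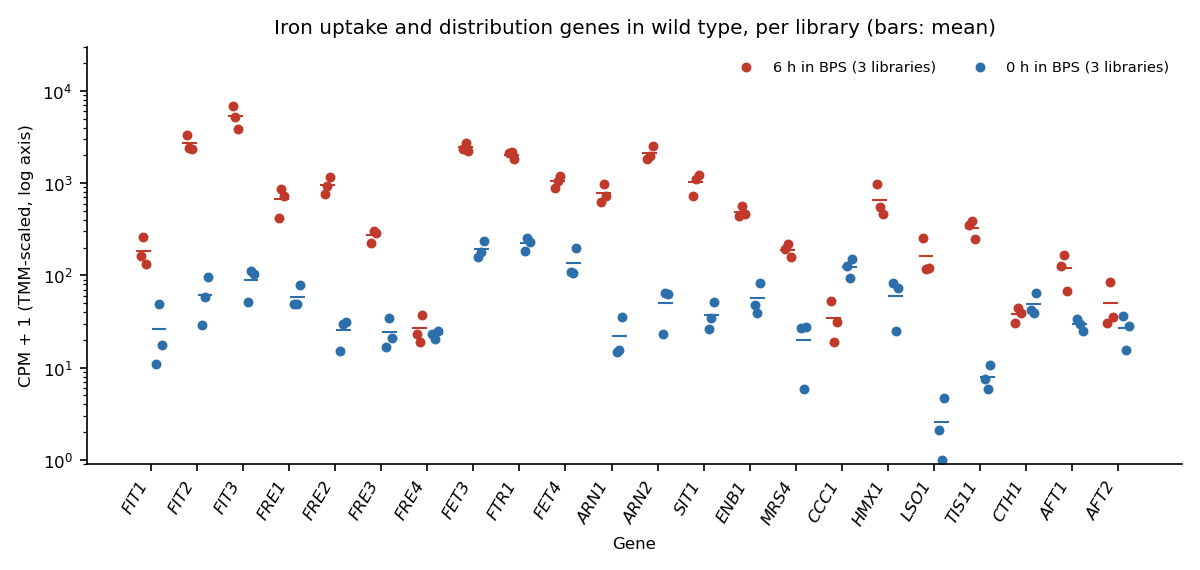
CPM plus 1 (log axis) of 22 genes of iron uptake, distribution and regulation in the 3 wild-type libraries at 6 h in BPS (red) and the 3 at 0 h (blue), with short bars at the means. FIT2, FIT3, FET3, FTR1 and ARN2 lie at 1810 to 6801 CPM at 6 h, CCC1 is lower at 6 h, and FRE4, CTH1 and AFT2 show no called difference.

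The iron-sulfur cluster assembly list had 28 genes tested, of which 3 rose (10.7%) and 5 fell (17.9%), against 19.2% and 16.7% of all features, with a median of -0.34 that turned to 0.25 under total-count scaling. The rises were the scaffolds ISU1 and ISU2 and the chaperone gene SSQ1 (1.36). The falls were YFH1, frataxin (-1.67), the cluster carrier NFU1 (-1.38), the Hsp70 exchange factor MGE1 (-1.52), BOL3, which acts late in delivery to target proteins (-2.66), and DRE2, an electron donor of cytosolic assembly (-0.95). Of these, DRE2 lost its call under 12 of the 15 alternatives tried and BOL3 without replicate 3 at 6 h (-1.82), when 3 of the list fell.

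The respiratory chain fell on balance but not as a block. Of 24 genes, 10 fell (41.7%) and 4 rose (16.7%), against 16.7% and 19.2% of all features. The list's median of -1.06 stayed negative under each scaling (-0.48 with total counts, where 4 fell and 4 rose). CYC1 (YJR048W), the main form of cytochrome c, had 14.8, 54.3 and 22.7 CPM at 6 h, against 557, 622 and 686 CPM at 0 h (log2 fold change -4.37 ± 0.75 SE, edgeR adjusted p = 9.89e-05). The drop exceeded any other on this list, and the groups were far apart in each library, although CYC1 was below the limit of 3 counts in replicate 1 at 6 h. CYT1, RIP1, COR1, QCR2, QCR7 and QCR8, subunits of the cytochrome bc1 complex, had log2 fold changes of -1.92, -1.77, -1.39, -1.10, -1.51 and -1.29, and COX5A, COX6 and COX8 of cytochrome oxidase -1.25, -2.10 and -1.83. The 4 genes that rose were CYC7 and COX5B, forms of cytochrome c and of an oxidase subunit used when oxygen or heme is low, NDE2, an NADH dehydrogenase that needs no iron (4.32), and CYB2, the heme-containing lactate dehydrogenase (1.92). Without both shallow libraries 4 genes fell, without replicate 2 at 6 h 5 fell, and without replicate 3 at 6 h 6 fell and 2 rose, and RIP1, QCR2 and COX5A lost the call in most of the alternatives.

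In the citric acid cycle, 5 of 17 genes rose (29.4%) and 3 fell (17.6%), against 19.2% and 16.7% of all features. The list's median, -0.05, changed sign with other scalings (0.54 with total counts, where 7 rose and none fell). Without replicate 1 at 6 h or replicate 1 at 0 h 3 rose, and without replicate 3 at 6 h 1 fell. IDH1 (YNL037C), a subunit of the iron-free isocitrate dehydrogenase, had 1239, 1491 and 664 CPM at 6 h, against 163, 106 and 153 CPM at 0 h (log2 fold change 2.97 ± 0.46 SE, edgeR adjusted p = 3.16e-05). IDH2, CIT1, LSC2 and MDH1, also without iron, had log2 fold changes of 2.28, 1.66, 1.29 and 1.00. The 3 falls were subunits of succinate dehydrogenase, which carries iron-sulfur clusters and heme. SDH1 (YKL148C), the flavoprotein, had 44.5, 50.7 and 45.0 CPM at 6 h, against 140.0, 121 and 159.7 CPM at 0 h (log2 fold change -1.60 ± 0.45 SE, edgeR adjusted p = 0.00798), and SDH2 (YLL041C), the iron-sulfur subunit, had 37.1, 25.3 and 27.3 CPM at 6 h, against 65.7, 53.1 and 69.1 CPM at 0 h (log2 fold change -1.18 ± 0.43 SE, edgeR adjusted p = 0.0368). Neither gene's groups overlapped, yet SDH1 lost its call without replicate 3 at 6 h (-1.51) and SDH2 without any of 5 libraries in turn (-1.22 to -1.06). ACO1 (YLR304C), the iron-sulfur enzyme aconitase, did not pass at 6 h, with 475, 742 and 322 CPM at 6 h, against 719.7, 844 and 613 CPM at 0 h (log2 fold change -0.51 ± 0.45 SE, edgeR adjusted p = 0.406), and its groups overlapped.

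The RNA of 3 amino acid enzymes with iron-sulfur clusters fell. GLT1 (YDL171C), glutamate synthase, had 89.0, 322 and 147 CPM at 6 h, against 761, 1133 and 871 CPM at 0 h (log2 fold change -2.29 ± 0.40 SE, edgeR adjusted p = 0.000115). ILV3 (YJR016C), dihydroxyacid dehydratase of branched-chain synthesis, had 229.9, 268 and 194 CPM at 6 h, against 711, 825 and 749 CPM at 0 h (log2 fold change -1.73 ± 0.34 SE, edgeR adjusted p = 0.000457). Neither gene had a library at 6 h as high as any at 0 h. LYS4, homoaconitase, had a log2 fold change of -1.50 and lost its call without replicate 3 at 6 h (-1.39). LEU1, isopropylmalate isomerase, did not pass, with 89.0, 141 and 35.5 CPM at 6 h, against 146, 149.5 and 173 CPM at 0 h (log2 fold change -0.93 ± 0.44 SE, edgeR adjusted p = 0.104), although without replicate 2 at 6 h it did (-1.60). Of the 6 genes on the list, 3 fell and none rose, with a median of -1.22, against 2 lower and 1 higher with total counts. The largest log2 fold change on the list was 1.13. With RLE factors, DESeq2 or a minimum mean of 50 CPM 1 gene was also called higher. The same held with the compared groups alone, under the replicate block and without replicate 3 at 6 h. Of 8 heme synthesis genes, 3 fell, HEM3 (-1.22), HEM12 (-1.09) and HEM15, ferrochelatase (-1.27), and none of the 3 passed with total counts and 1 without both shallow 6 h libraries or without replicate 3 at 0 h. Of 16 subunits and inhibitor proteins of the mitochondrial ATP synthase, which holds no iron, 1 rose, the inhibitor-like STF1 (3.93), and 1 fell, the subunit ATP16 (-1.08), with a median of -0.33 (0.25 with total counts). These are 6.2% each way, against 19.2% and 16.7% of all features.

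Of 13 genes that yeast turns up when oxygen or heme is scarce 6 rose (46.2%) and none fell, against 19.2% and 16.7% of all features. The remaining 7 did not pass. The list (median 1.97, range -1.20 to 4.27) held DAN1, a cell wall mannoprotein (4.27), COX5B (3.71) and OLE1, the di-iron fatty acid desaturase (1.97). Without replicate 3 at 6 h 3 rose. HAP1, the heme-responsive activator of respiratory genes, had 319, 731 and 632 CPM at 6 h, against 68.8, 67.5 and 87.0 CPM at 0 h (log2 fold change 2.91 ± 0.41 SE, edgeR adjusted p = 8.84e-06), with no overlap, and the 5 HAP genes had a median of 0.30. Among 22 genes of heme-based and peroxide defence 10 rose (45.5%) and 4 fell (18.2%), with a median of 0.34. All features had 19.2% and 16.7%, and with total counts the list had 11 rises and 1 fall. Leaving out 1 library lowered the rises to 5 without replicate 1 at 0 h and 6 without replicate 1 at 6 h, and the falls to 1 without replicate 3 at 6 h or at 0 h and 2 without replicate 2 at either time or replicate 1 at 0 h.

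The RNA-binding proteins Cth1 and Cth2 recognise TTATTTAT, with U for T in the RNA, downstream of the coding sequence. Matches on the coding strand are shown for 5 genes of iron use and storage, with R64 coordinates of the capitals, since these are the genes whose 6 h values are given above.

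CYC1, chrX:526826-526833, plus strand: attaagaacgTTATTTATatttcaaatt
SDH2, chrXII:52962-52969, minus strand: tctatgactaTTATTTATttatcattgg
ACO1, chrXII:735173-735180, minus strand: ttaaaggttaTTATTTATtttgtcttct
GLT1, chrIV:149182-149189, minus strand: gcttgagttaTTATTTATtttatgatcg
CCC1, chrXII:577937-577944, plus strand: ctctttaaatTTATTTATattaatgaat

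The matches begin 162 bases after the stop codon in CYC1, 162 in SDH2, 32 in ACO1, 14 in GLT1 and 144 in CCC1. In the 300 bases after the stop codon, 398 of 5572 genes (7.14%) held the element. It was in 15 of 24 respiratory genes (62.5%), 5 of 8 heme synthesis genes (62.5%), 4 of 6 iron-dependent amino acid enzymes (66.7%) and 7 of 17 citric acid cycle genes (41.2%). It was not particular to lists that fell. It was in 3 of 6 genes of vacuolar and mitochondrial iron transport (50%), of which 5 rose. Of 10 targets of the zinc-sensing activator Zap1, 4 held it (40%) and 9 rose. Sterol synthesis had it in 7 of 23 genes (30.4%) and iron-sulfur assembly in 2 of 28 (7.14%). Over all genes with it, 74 were called higher (18.6%) and 90 lower (22.6%), with a median of -0.12. Over the 5174 without it, 1038 were called higher (20.1%) and 865 lower (16.7%), with a median of 0.05. The reverse complement ATAAATAA, which the proteins are not known to bind, was in 366 genes (6.57%), of which 59 were called higher (16.1%) and 56 lower (15.3%). Since the lists were chosen with earlier results known, the shares in them are not separate support. A match is not a shown binding site.

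Whether the change from 0 h to 6 h differed in the strain without CTH1 and CTH2 was tested as an interaction over the same fit. Of 6006 features 2 passed (0.0333%), and 470 had an unadjusted p under 0.05. DESeq2 passed 47 and the fit with the replicate number as a block 4. One was TIS11 itself, whose coding sequence the mutant lacks. The TIS11 call was lost after thinning and without replicate 3 of the mutant at 0 h. The other was SCW11, a cell wall glucanase, which lost its call under 12 of 20 alternatives. In wild type it had 81.6, 344 and 148 CPM at 6 h, against 77.0, 38.6 and 87.3 CPM at 0 h, and the groups overlapped. In the mutant its mean was 38.5 ± 15.4 CPM at 6 h, against 196 ± 104 CPM at 0 h (SD, n = 3 each). For the remaining features the 6 h change did not pass as different between strains, which does not show that it was alike.

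Wild-type RNA at 3 h gives the position of each gene between the end points. Of 1152 features called higher, 999 (86.7%) had a 3 h mean between the means of 0 h and 6 h, as did 871 of 1003 called lower (86.8%), against 3478 of all 6006 (57.9%). The 3 h mean lay below both in 19 of 24 respiratory genes (79.2%), in 10 of 17 citric acid cycle genes (58.8%) and in all 6 iron-dependent amino acid enzymes, against 1189 of 6006 features (19.8%). The same position was as frequent in lists not chosen for iron use, with 17 of 23 sterol synthesis genes (73.9%), 20 of 31 Gcn4 targets (64.5%) and 7 of 8 genes of the mitochondrial genome (87.5%), while 2 of 8 heme synthesis genes (25%) had it. ACO1 averaged 94.0 ± 51.4 CPM at 3 h (SD, n = 3), LEU1 28.7 ± 14.5, SDH2 11.9 ± 3.27 and GLT1 132 ± 56.0. All 4 values are lower than the means at 0 h and at 6 h given by the libraries above. Small-subunit ribosomal protein genes lay between in 55 of 56. Replicate 2 at 3 h stood apart, at 14.9 on the first principal component, against -20.2 and -20.7 for replicates 1 and 3. Respiratory genes took 0.156, 0.111 and 0.197% of counts at 3 h, and citric acid cycle genes 0.175, 0.145 and 0.174%. These positions are a description of means without a test, and the comparison with 0 h and that with 6 h share the 3 h libraries. Called features were picked for distant means at 0 h and 6 h, so a 3 h mean between them is more frequent by construction.

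**Figure D2:**
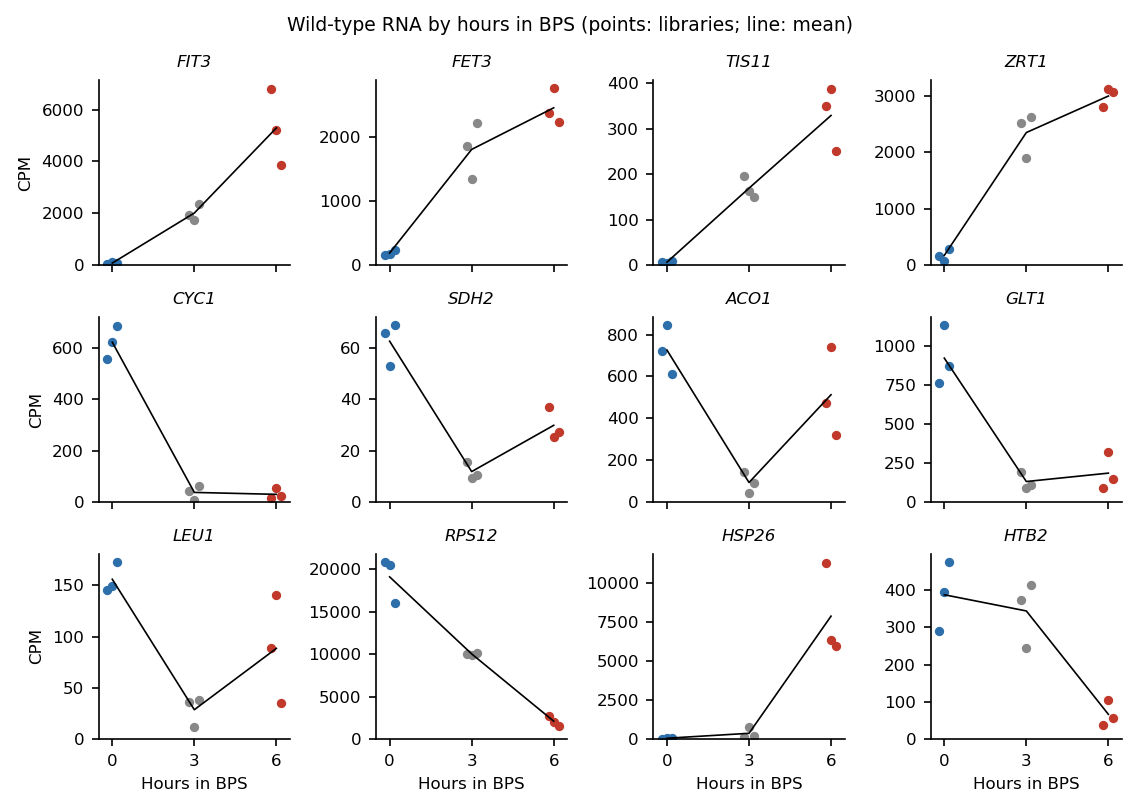
CPM of 12 genes in wild-type RNA against hours in BPS (0, 3 and 6), with points for the 3 libraries of each time and a line through the means; each panel has its own linear axis. FIT3, FET3, TIS11 and ZRT1 have higher means at each later time, SDH2, ACO1, GLT1 and LEU1 have their lowest mean at 3 h, and RPS12 has a lower mean at each later time.

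Some iron-free steps in the same pathways rose and others did not. Of 9 iron-free genes of branched-chain amino acid synthesis 2 rose (22.2%), 1 fell (11.1%) and 6 did not pass. All features had 19.2% and 16.7%. That list's median was -0.22 (0.36 with total counts), and LEU9, an isopropylmalate synthase gene, had a log2 fold change of -2.19. GDH3 (YAL062W), a glutamate dehydrogenase, had 356, 177 and 236 CPM at 6 h, against 11.1, 19.3 and 11.2 CPM at 0 h (log2 fold change 4.38 ± 0.50 SE, edgeR adjusted p = 1.08e-06), and GDH2, the glutamate-degrading form, a log2 fold change of 1.76. In GDH3 every library of 6 h was above those of 0 h. GDH1, another glutamate dehydrogenase gene, did not pass (log2 fold change 0.71 ± 0.36 SE, edgeR adjusted p = 0.128). BIO3, BIO4 and BIO5, adjacent genes on chromosome XIV for biotin precursor uptake and the steps before the last, had log2 fold changes of 4.17, 3.73 and 4.05. The last step is catalysed by BIO2, an iron-sulfur enzyme whose gene did not pass (log2 fold change 0.34 ± 0.49 SE, edgeR adjusted p = 0.624). BIO5 had 274, 412 and 382 CPM at 6 h, against 21.7, 19.3 and 22.5 CPM at 0 h, with no overlap. Of 31 targets of Gcn4, the activator of amino acid synthesis, 4 rose (12.9%) and 2 fell (6.5%), with a median of 0.22. Both shares were below those of all features, 19.2% and 16.7%. With total counts 14 rose and none fell, without both shallow 6 h libraries 1 rose and 1 fell (median -0.14), and without replicate 1 at 0 h 2 rose. Of 23 sterol synthesis genes 2 rose (8.7%) and 1 fell (4.3%), also below the shares of all features (median -0.17, 0.40 with total counts).

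In some families of genes that encode forms of one protein the members parted, while both iron-sulfur scaffold genes, ISU2 (3.65) and ISU1 (1.96), rose. These families were chosen after their values were seen, and levels are compared per kilobase of gene length. TDH1, one of 3 glyceraldehyde-3-phosphate dehydrogenase genes, had 9456, 7743 and 8899 CPM at 6 h, against 33.6, 53.1 and 97.9 CPM at 0 h (log2 fold change 7.12 ± 0.97 SE, edgeR adjusted p = 6.83e-06), while TDH3 did not pass (log2 fold change -0.31). TDH1 made up 31.0, 36.2 and 39.1% of the family's CPM per kilobase at 6 h, against 0.17, 0.249 and 0.571% at 0 h. ENO1, an enolase, made up 54.0, 54.5 and 62.2% of its pair at 6 h, against 4, 3.56 and 8.41% at 0 h. CYC7 made up 79.4, 31.1 and 81.0% of cytochrome c at 6 h, against 0.689, 2.19 and 2.40% at 0 h, and COX5B 56.9, 69.5 and 85.1% of its pair at 6 h, against 9.28, 8.18 and 8.13% at 0 h. In all 4 families no share at 6 h was as low as any at 0 h. CYC1 was below the limit of 3 counts in replicate 1 at 6 h, so the cytochrome c share of that library rests on few reads. CYC7 alone had 59.3, 25.3 and 100.3 CPM at 6 h, against 4.01, 14.5 and 17.5 CPM at 0 h (log2 fold change 2.64), and it lost its call without replicate 3 at 6 h (1.87). Near-identical copies share reads, and how such reads were counted is not given in the sources used here, so splits within the glycolytic families are uncertain.

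**Figure D3:**
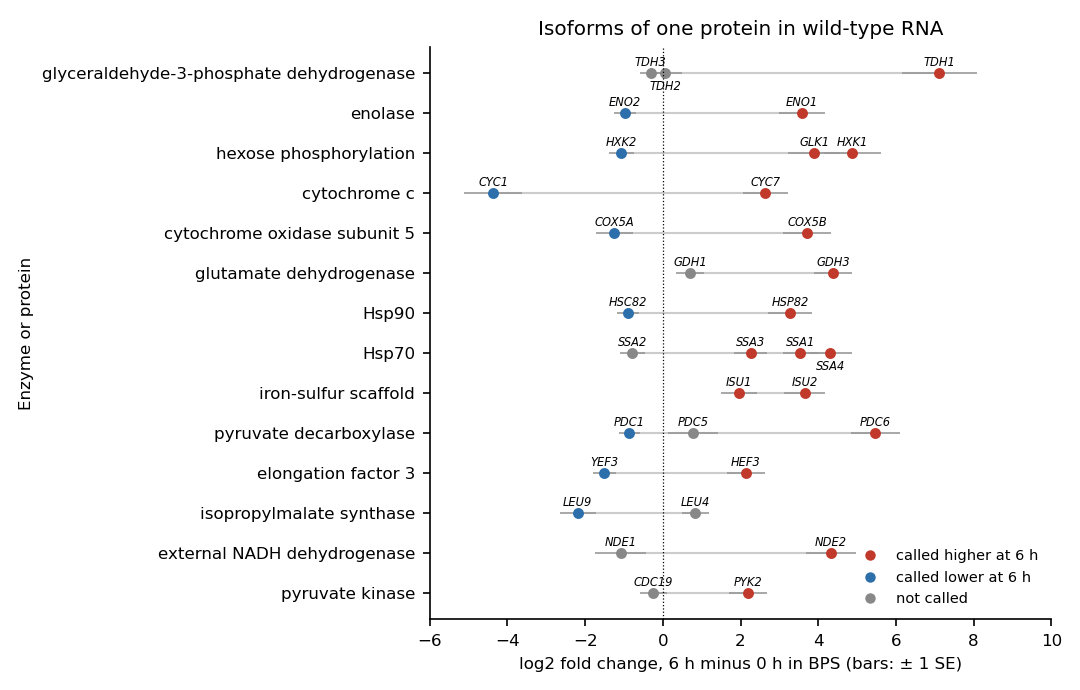
Log2 fold change, 6 h minus 0 h, with bars of 1 SE, for the genes of 14 families that encode forms of one protein, coloured by call under TMM scaling. TDH1 (7.12) and PDC6 (5.47) were called higher while TDH2, TDH3 and PDC5 were not called, COX5B (3.71) was called higher and COX5A lower, and the lower call of ENO2 did not pass under total-count scaling.

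RNA of genes for carbon use changed at the same time. Of 11 glucose transport and sensing genes 6 rose (54.5%) and none fell (median 1.24), against 19.2% and 16.7% of all features. Among them were the high-affinity transporters HXT6 (5.76) and HXT7 (2.51), which are near-identical copies, and HXT5 (4.43). Without replicate 3 at 6 h 4 of the 11 rose. Of 15 tested genes of gluconeogenesis and the glyoxylate cycle 10 rose (66.7%) and none fell (median 1.56), with ALD4, mitochondrial aldehyde dehydrogenase, at 3.97. Only 7 of the 15 rose without replicate 3 at 6 h. With a minimum mean of 50 CPM, 4 glucose transport and sensing genes were tested, of which 1 rose. In that setting 3 genes of gluconeogenesis and the glyoxylate cycle were tested, of which 2 rose. Glycolysis and fermentation had 6 rises (28.6%) and 4 falls (19.0%) among 21 genes (median 0.06), against 19.2% and 16.7% of all features. The list had 8 rises and 1 fall with total counts and 2 falls without replicate 3 at 6 h. ADH1, the main alcohol dehydrogenase of fermentation, had 3137, 2645 and 3405 CPM at 6 h, against 8520, 9820 and 9516 CPM at 0 h (log2 fold change -1.60 ± 0.34 SE, edgeR adjusted p = 0.000909), with no overlap, and lost its call without both shallow 6 h libraries (-1.44). Glycolytic genes still took 12.3, 9.98 and 10.7% of all counts at 6 h, against 7.92, 8.50 and 7.79% at 0 h.

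Most genes of reserve carbohydrates and of stress rose. Of 20 trehalose and glycogen genes 17 rose and none fell (median 2.65), and of 29 genes of stress and stationary phase 27 rose and none fell (median 3.57). HSP26 (YBR072W), a small heat shock protein, had 1.133e+04, 6387 and 5951 CPM at 6 h, against 23.9, 82.0 and 59.9 CPM at 0 h (log2 fold change 7.29 ± 0.69 SE, edgeR adjusted p = 2.05e-07). HSP12 (YFL014W), a membrane-stabilising stress protein, had 4709, 1505 and 1172 CPM at 6 h, against 14.1, 24.1 and 28.8 CPM at 0 h (log2 fold change 6.82). The lowest library at 6 h stood above the highest at 0 h by more than an order of magnitude in both genes. DDR2, a small stress protein, had 986, 242 and 322 CPM at 6 h, against 1.46, 0 and 5.95 CPM at 0 h (log2 fold change 7.25 ± 0.84 SE, edgeR adjusted p = 1.17e-06), and GPH1, glycogen phosphorylase, 808, 308 and 828 CPM at 6 h, against 13.7, 9.65 and 31.4 CPM at 0 h (log2 fold change 4.98). TPS1, the first enzyme of trehalose synthesis, had a log2 fold change of 2.48, PGM2, phosphoglucomutase, 4.35, and GLC3, the glycogen branching enzyme, 4.39. These calls were made under every scaling tried.

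The stress response element AGGGG, which the general stress factors Msn2 and Msn4 bind, is printed from the regions upstream of HSP12 and DDR2, the genes with 5 and 4 matches, with the element in capitals.

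HSP12, chrVI:106821-106825, plus strand: gcatctgttaAGGGGatatgttgca
HSP12, chrVI:107066-107070, minus strand: tcagatcaagAGGGGgacgaccgga
DDR2, chrXV:231926-231930, plus strand: atgtcccataAGGGGtgagaaaaga

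Within 500 bases upstream, on either strand, it was in 1913 of 5572 genes (34.3%), in 22 of 29 stress and stationary-phase genes (75.9%) and in 15 of 20 trehalose and glycogen genes (75.0%). Of genes with it 582 were called higher (30.4%) and 247 lower (12.9%), and of the 3659 without it 530 higher (14.5%) and 708 lower (19.3%). Genes with the element had a median log2 fold change of 0.36, against -0.10 without. Both lists were chosen with earlier results of these data known, so the element's share in them is not separate support. A match is not a shown binding site.

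Protein folding and turnover genes did not change as a single group. Of 29 tested chaperone genes 15 rose (51.7%) and 5 fell (17.2%), against 19.2% and 16.7% of all features. The share of falls was thus near that of all features. The median was 1.52, and 3 fell without replicate 2 at 6 h. Chaperone genes took 4.08, 3.06 and 3.37% of counts at 6 h, against 1.31, 1.44 and 1.08% at 0 h. HSP104, the disaggregase, had 2640, 1954 and 3110 CPM at 6 h, against 156, 164 and 139.5 CPM at 0 h (log2 fold change 4.08), and SSA1, a cytosolic Hsp70, a log2 fold change of 3.54. SSB1, the Hsp70 that binds chains leaving the ribosome, fell, with 163, 297 and 116 CPM at 6 h, against 1167, 1042 and 747 CPM at 0 h (log2 fold change -2.38). Neither HSP104 nor SSB1 had overlapping groups. Of 36 tested autophagy genes 26 rose and 1 fell, ATG27 (median 1.69), against 31 rises with total counts and 16 without replicate 3 at 6 h. ATG8, the ubiquitin-like protein on autophagosomes, had 134, 61.5 and 132 CPM at 6 h, against 6.93, 4.82 and 6.28 CPM at 0 h (log2 fold change 4.07), and PRB1, a vacuolar protease, 2551, 2211 and 1742 CPM at 6 h, against 70.4, 91.6 and 86.3 CPM at 0 h (log2 fold change 4.73). Proteasome subunits had a median of 0.03 over 34 genes, and the single call was RPN4, their transcription factor (1.96).

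The zinc regulon rose as well. Of 10 targets of Zap1, the zinc-sensing activator, 9 rose, including ZAP1 itself (3.34), and MCD4 fell (-1.49), which did not pass with total counts. ZRT1 (YGL255W), the high-affinity zinc transporter, had 2803, 3130 and 3063 CPM at 6 h, against 159, 82.0 and 289 CPM at 0 h (log2 fold change 4.04 ± 0.50 SE, edgeR adjusted p = 2.45e-06). ZPS1 (YOL154W), a cell surface protein made under zinc shortage, had 756, 1020 and 1529 CPM at 6 h, against 17.1, 38.6 and 24.1 CPM at 0 h (log2 fold change 5.56). The groups did not overlap in ZRT1 or ZPS1. Without replicate 3 at 6 h, 6 rose. The zinc response element was searched in a strict form, the 5 bases ACCTT and AAGGT separated by 1 base, and 9 of 5572 genes (0.162%) held it, of which 6 were called higher and 1 lower. The sites in ZRT1, which rose, and MCD4, the 1 lower, are shown with the element in capitals.

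ZRT1, chrVII:20774-20784, plus strand: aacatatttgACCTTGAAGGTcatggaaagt
MCD4, chrXI:140785-140795, minus strand: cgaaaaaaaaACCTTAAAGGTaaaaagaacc

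The machinery of protein synthesis fell together. All 56 genes of the small ribosomal subunit fell, with log2 fold changes of -3.18 to -1.73 (median -2.53, -1.95 with total counts, where all 56 fell too). Of 79 tested genes of the large subunit 78 fell (median -2.36, -1.78 with total counts) and RPL15B did not pass (0.50), while it was called higher with total counts (1.1). Cytosolic ribosomal protein genes together took 10.9, 10.1 and 9.06% of all counts at 6 h, against 37.8, 36.3 and 35.6% at 0 h, and 28.3, 29.0 and 29.3% at 3 h. RPS12 (YOR369C) had 2692, 2055 and 1571 CPM at 6 h, against 2.083e+04, 2.041e+04 and 1.598e+04 CPM at 0 h (log2 fold change -3.18 ± 0.33 SE, edgeR adjusted p = 4.55e-07), and RPL9A, which has a near-identical partner gene, had 608, 507 and 422 CPM at 6 h, against 4466, 4867 and 4306 CPM at 0 h (log2 fold change -3.16). Levels were within a narrow band in each group and wide apart between groups.

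**Figure D4:**
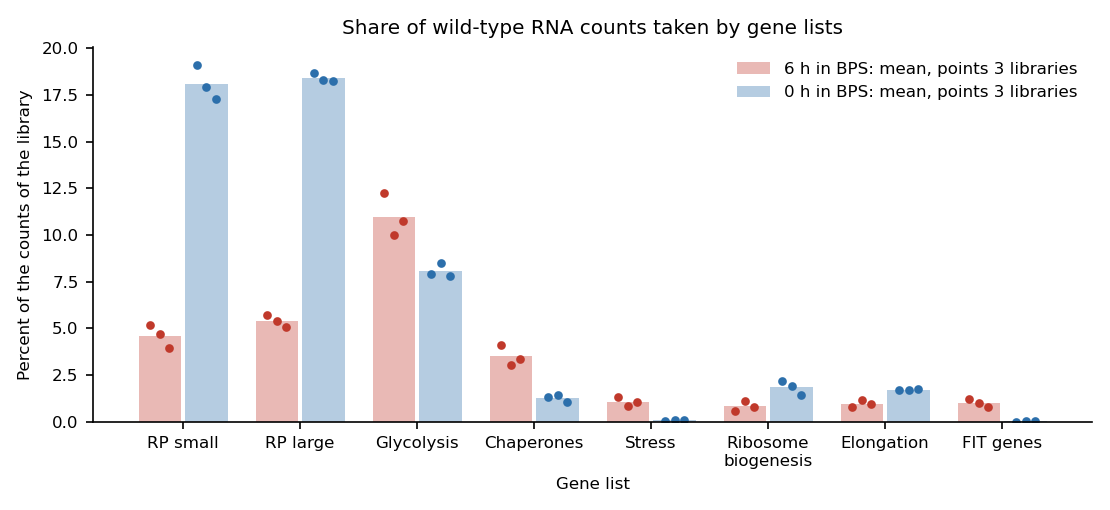
Percent of the counts of each library taken by 8 gene lists, with bars at the means and points for the 3 libraries at 6 h in BPS (red) and the 3 at 0 h (blue). These shares use no TMM factor: ribosomal proteins (RP) of the small subunit take 3.97 to 5.16% at 6 h, against 17.3 to 19.1% at 0 h.

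The genes that make ribosomes fell with them. Of 95 ribosome biogenesis genes 72 fell and none rose, all 95 had a negative log2 fold change (median -1.61), and 39 fell with total counts. GAR1, a protein of the small nucleolar RNPs that modify ribosomal RNA, had 104, 141 and 108 CPM at 6 h, against 826, 651 and 549.9 CPM at 0 h (log2 fold change -2.52). Of 27 subunits and initiation factors of RNA polymerases I and III 21 fell and none rose (median -1.64), and 13 fell and 1 rose with total counts. RPA12, a subunit of polymerase I, had 14.8, 10.9 and 13.1 CPM at 6 h, against 104, 121 and 117 CPM at 0 h (log2 fold change -3.12), at or below the limit of 3 counts in both shallow libraries at 6 h. RPA190 and RPA135, its largest subunits, had -2.0 and -1.94. These falls thinned out with fewer libraries: without replicate 3 at 6 h, the deep one, 44 of the 95 and 12 of the 27 passed.

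The element GATGAG, called PAC, recurs upstream of such genes and is in capitals below.

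RPA135, chrXVI:581295-581300, plus strand: ataattaagaGATGAGatgagtctct
RPA190, chrXV:960820-960825, minus strand: ctttttaagaGATGAGatgagatttg
GAR1, chrVIII:283418-283423, minus strand: aatttttcgaGATGAGgaaaggaaga

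On either strand of the 500 bases upstream, PAC was in 1569 of 5572 genes (28.2%), in 82 of the 95 ribosome biogenesis genes (86.3%) and in 21 of the 27 polymerase genes (77.8%). Of genes with it 249 were called higher (15.9%) and 398 lower (25.4%), and of the 4003 without it 863 higher (21.6%) and 557 lower (13.9%). These lists, too, were chosen with earlier results known, so PAC's share in them is not separate support.

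Among translation elongation genes 7 of 10 tested fell and 1 rose (median -1.26), and 4 fell and 2 rose with total counts. YEF3, elongation factor 3, had 2292, 4545 and 3539 CPM at 6 h, against 9245, 1.047e+04 and 9873 CPM at 0 h (log2 fold change -1.51), while its second copy HEF3 rose (2.14). Mitochondrial ribosomal protein genes fell in 23 of 66 and rose in none (median -0.85), against 4 falls with total counts, 7 without both shallow 6 h libraries, 11 without replicate 2 at 6 h, and 14 without replicate 3 at 6 h or replicate 1 at 0 h. The 8 protein genes of the mitochondrial genome had no call in either direction in the main fit (median 0.22, which was -0.22 without replicate 2 at 6 h). None was called by DESeq2, and 1 was called higher with total counts (median 0.81).

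Histone genes fell in part. HTB2, a histone H2B gene, had 37.1, 105 and 57.2 CPM at 6 h, against 291, 396 and 476 CPM at 0 h (log2 fold change -2.52 ± 0.47 SE, edgeR adjusted p = 0.000241), and 5 of 11 histone genes fell and none rose (median -0.83, -0.25 with total counts, where 4 fell). CLN2, a G1 cyclin, had 14.8, 14.5 and 22.8 CPM at 6 h, against 109, 91.6 and 92.6 CPM at 0 h (log2 fold change -2.31), and was below the limit of 3 counts in replicate 1 at 6 h. Neither gene had overlapping groups. Of 19 cyclin and cell cycle genes 3 fell (15.8%, against 16.7% of all features), CLN2, CLB2 (-1.57) and FAR1 (-1.16), and 1 rose, SIC1, a cyclin-dependent kinase inhibitor (1.06), and all but CLN2 lost the call without replicate 3 at 6 h. The genes of ribonucleotide reductase, a di-iron enzyme that makes DNA precursors, included 4 falls of 8, RNR1 (-1.16), RNR2 (-1.31), RNR4 (-1.60) and the kinase gene DUN1 (-1.82), and 2 of the 8 fell and 2 rose with total counts.

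**Figure D5:**
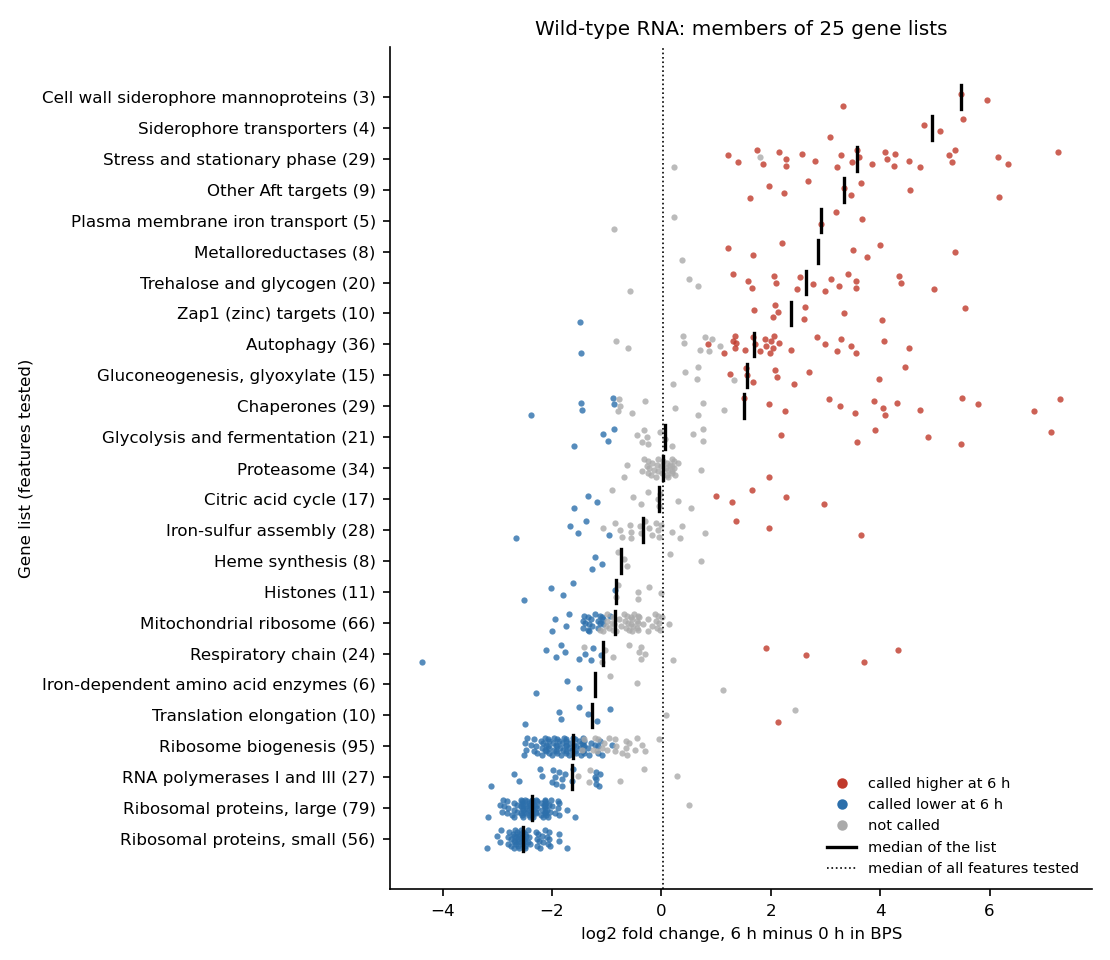
Log2 fold change, 6 h minus 0 h, for the tested genes of 25 gene lists under TMM scaling, coloured by call, with a thick mark at each list's median and a dotted line at the median of all features (0.03). Medians run from 5.48 for the cell wall mannoproteins to -2.53 for the small ribosomal subunit, and those of the citric acid cycle and iron-sulfur assembly change sign with total counts.

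Outside these lists, among genes averaging at least 50 CPM at the higher time and without overlap between groups, the 12 largest rises had log2 fold changes of 7.04 (EGO4) to 5.20 (SPG4). They included TMA10 (6.69), PIR3, a cell wall glycoprotein (6.37), THI4, an enzyme of thiamine synthesis (5.97), and DAL80, a repressor of nitrogen use genes (5.79). PIR3 had 994, 1013 and 666 CPM at 6 h, against 8.21, 9.65 and 13.6 CPM at 0 h. The 12 largest falls had log2 fold changes of -4.52 (MYG1) to -3.02 (ITR1, an inositol transporter). They included DPH2, an iron-sulfur enzyme of diphthamide synthesis (-3.68), UTR2, a cell wall transglycosidase (-3.66), and HNM1, the choline transporter (-3.56). RLI1, an iron-sulfur protein that recycles ribosomes, had 14.8, 57.9 and 19.0 CPM at 6 h, against 274, 299 and 289 CPM at 0 h (log2 fold change -3.32 ± 0.48 SE, edgeR adjusted p = 1.28e-05). DPH2 had 7.42, 25.3 and 12.8 CPM at 6 h, against 214, 174 and 179 CPM at 0 h (log2 fold change -3.68 ± 0.52 SE, edgeR adjusted p = 1.16e-05). Both iron-sulfur proteins had every library at 6 h far below those at 0 h, and in replicate 1 at 6 h both were below the limit of 3 counts.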

How the data were processed

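RNA-seq libraries were made, per the labels' protocols, from bead-purified mRNA cut by alkaline hydrolysis to fragments of 50 to 75 nt, with the ARTseq kit. The deposited values are whole-number counts per feature for 7127 features in each library. Per the submitters' processing notes, the authors used cutadapt 3.4, Bowtie 1.1.2 and STAR 2.7.9a with build R64. The counting program, its use of strand and its handling of reads that match several genes are not given in the sources used here. Of the 7127 features, 6047 matched the R64 annotation and 6008 of these are protein-coding.

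Counts were tested with edgeR 4.0.16 in R 4.3.3: TMM factors, filterByExpr with a minimum count of 10, and a quasi-likelihood fit of all 18 RNA-seq libraries with 1 mean for each of 6 groups, which left 12 residual degrees of freedom. The contrast was wild type at 6 h minus wild type at 0 h. P-values were adjusted by Benjamini-Hochberg over the 6006 features tested, with a threshold of 0.05, and the SE is the log2 fold change divided by the root of its F. Labels call the libraries biological replicates without naming separate cultures, so p-values measure the spread between these libraries. Limits of 3 counts cover counting error only. Replicates of a group differed beyond sampling noise, so none was counted as a repeat of another.

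The replicate numbers were checked for pairing. Deviations from group means of wild type at 6 h and 0 h correlated at -0.004, 0.114 and 0.21 for the same numbers. For unlike numbers they correlated at -0.165 to 0.027. The main fit did not pair the libraries, and the replicate number entered as a block in an alternative. Whether the numbers mark a shared batch was not tested.

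Members and gene lists were chosen with earlier results of these data known, and a few name matches that belong to other complexes were removed after the lists were seen. Genes named are the defining members of each list, members with the largest called changes, and, outside the lists, some of the 12 largest rises and falls with at least 50 CPM in the higher group and no overlap. Motifs were searched in the R64 genome as exact letters, 500 bases upstream of the start codon or 300 bases downstream of the stop codon. Also searched upstream were CCAAT, the Gcn4 element TGACTC and a shorter Aft core, GCACCC. Genes with CCAAT were called higher in 19.8% and lower in 17.5%, against 20.2% and 16.6% of those without. For TGACTC these shares were 21.8% and 13.4%, against 19.7% and 17.7%. For GCACCC they were 31.3% and 12.2%, against 19% and 17.5%. Alternatives were RLE factors, total counts, DESeq2 1.42.0, no filter or a minimum mean of 50 CPM, the compared groups alone, a replicate block, thinning to 113262 counts, and leaving out libraries.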

Additional observations from a re-analysis of the deposited data

Results flagged for a closer look

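The change from 0 h to 6 h differed between the strains in 2 genes by the interaction test of edgeR. TIS11 rose in wild type, with 349, 387 and 250.0 CPM at 6 h, against 6.57, 4.82 and 9.59 CPM at 0 h, and in the strain from which it was deleted it averaged 6.98 CPM at 6 h and 4.53 CPM at 0 h. The difference of the changes, mutant minus wild type, was -5.55 ± 0.67 on the log2 scale (SE, edgeR adjusted p = 0.000146). It did not pass after thinning (-3.51) or without replicate 3 of the mutant at 0 h (-4.18).

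SCW11 had a difference of -3.71 ± 0.67 (SE, edgeR adjusted p = 0.0367), and it did not hold up well: the call was lost with total counts, with the compared groups alone, after thinning and without any 1 of 9 of the 12 libraries, 12 of 20 alternatives in all. Over the alternatives the difference lay between -4.06 and -3.03 and the adjusted p between 4.16e-05 (DESeq2) and 0.199 (edgeR). Wild type gave 81.6, 344 and 148 CPM at 6 h, against 77.0, 38.6 and 87.3 CPM at 0 h (log2 fold change 1.43). The mutant gave a mean of 38.5 ± 15.4 CPM at 6 h and 196 ± 104 CPM at 0 h (SD, n = 3 each). Replicate 2 of wild type at 6 h, a shallow library, was the highest, and replicate 2 at 0 h, also shallow, was the lowest of its group.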

How the results depend on the processing

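The count of features called in wild type RNA 6 h vs 0 h was 2155 and lay between 1490 and 1970 when 1 library was left out, was 2277 with the replicate block and 1133 after thinning all libraries to 113262 counts, where 3037 features were tested. Higher calls numbered 1152 and became 2088 with total counts and 637 after thinning, and lay between 809 and 1128 without 1 library. Lower calls numbered 1003 and became 484 with total counts, 652 with the stricter filter, 496 after thinning and 636 without both shallow libraries at 6 h, and lay between 681 and 900 without 1 library. Of the 2155 features, 3 had the other sign without replicate 3 at 6 h, 1 without replicate 2 at 6 h and 1 without both shallow libraries, and none under the other settings. For the mutant minus wild type difference in the 6 h RNA response, 2 features passed, against 1 with total counts, 47 with DESeq2, 1 with the compared groups alone, 4 with the replicate block, 0 after thinning (edgeR), and 0 to 48 when 1 library was left out. The 48 came without replicate 1 of the mutant at 0 h, and 0 without its replicate 3. The cause was not tested. Deviations of same-numbered wild-type libraries at 6 h and 0 h correlated at -0.004, 0.114 and 0.21, and those of unlike numbers at -0.165 to 0.027. In the mutant these ranges were 0.12 to 0.211 and -0.146 to 0.056. Between the strains same numbers correlated at 0.198 to 0.418 at 6 h and at 0.264 to 0.57 at 0 h. Unlike numbers there gave -0.293 to 0.05 at 6 h and -0.349 to 0.033 at 0 h. Of the 2155 calls, 2118 were also made under the block. Depth limits genes below 22.3 and 10.9 CPM, worth 3 counts, in the 2 shallow libraries at 6 h.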
